A study of Mus musculus with 9 samples.

Results

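Interferon-producing killer dendritic cells (IKDC) were compared with natural killer (NK) cells on 6 of the 9 Affymetrix mouse genome arrays of the series, 3 of each cell type. Each IKDC array was set against the NK array of the same organ and number, which gave 2 spleen pairs and 1 lymph node pair. Of 10916 genes with enough signal to be tested, 3579 had a difference of one sign in all 3 pairs, and these are the genes described: 1720 (15.8%) were higher in IKDC and 1859 (17%) were lower. The cells were sorted from freshly taken organs of naive BALB/c mice of 6 to 8 weeks, with no treatment, and 6 µg of total RNA was labelled for each array. The same organs gave 3 arrays of CDC (conventional dendritic cells in the usage of the field), which serve here as a reference. The surface markers used for sorting, and whether animals were pooled, are not given in the sources used here. No source says that the arrays of a group came from separate mice, so every p-value below measures only the spread between these arrays.

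NK cells are lymphocytes that kill infected or transformed cells with granules of perforin and granzymes and that secrete interferon gamma. They mature in steps, losing receptors such as Kit and CD27 and gaining CD11b, KLRG1 and the egress receptor S1PR5, while the factors T-bet, Eomes, Blimp-1 and Zeb2 direct the programme. Dendritic cells instead take up antigen and show it to T cells on class II molecules. IKDC were described as cells with features of both, carrying CD11c and B220 together with NK receptors, and whether they are a dendritic cell or a state of the NK cell has been debated.

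Levels below are log2 of intensity after quantile normalisation, a difference is IKDC minus NK on that scale (1 is a 2-fold difference), and values are given in the order spleen 1, spleen 2, lymph node. Genes that define NK cells were high on all 6 arrays and lower on CDC. Ncr1, which encodes the NK receptor NKp46, measured 10.97, 11.55 and 11.55 on the IKDC arrays and 11.63, 12.17 and 11.79 on the NK arrays, against 5.06 to 6.22 on CDC. The level of Gzma, which encodes granzyme A, lay between 13.09 and 13.42 on all 6 arrays, and CDC still read 9.68, 7.83 and 9.63. Eomes, the T-box factor of the NK lineage, measured 11.57, 12.34 and 11.87 on IKDC and 11.98, 12.29 and 11.70 on NK. Across the 10916 genes the arrays of a pair correlated at 0.936 (spleen 1), 0.935 (spleen 2) and 0.916 (lymph node). Over all combinations, matched or not, IKDC arrays correlated with NK arrays at 0.859 to 0.936 and with CDC arrays at 0.720 to 0.803. For NK arrays with CDC arrays the range was 0.708 to 0.778. The dendritic cell marker Itgax, which encodes CD11c, did not follow the labels of NK so cleanly. It measured 11.03, 11.24 and 10.88 on IKDC, and on NK it was as high on spleen array 1 (11.32) but far lower on the others (7.27 and 8.19).

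The arrays themselves differed in ways that touch these values. The IKDC spleen 2 array had the lowest median intensity of the 9 (23.4, others 28.5 to 41.3) and the weakest signal of the BioB spike (111, others 198 to 474). The ratio of 3' to 5' actin signal was 3.23 on IKDC spleen 1 and 1.11 to 2.35 on all others. All 3 cell types of spleen 1 were low in Xist, the RNA of the inactive X chromosome (6.02 to 6.36), and high in the Y-linked gene Eif2s3y (8.84 to 9.40), while the other 6 arrays had Xist at 11.43 to 12.48. The 2 arrays of each IKDC and NK pair were alike in this.

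No single gene passed the test across all genes. With limma, the pair as a block and Benjamini-Hochberg adjustment, 0 of 10916 genes (0%) had an adjusted p under 0.05, the smallest adjusted p was 0.106, and 1154 genes (10.6%) had an unadjusted p under 0.05. Of those 1154, 690 (6.32% of the tested genes) were higher and 464 (4.25%) lower in IKDC. Leaving out spleen pair 2 left 2 pairs and 124 called genes, while 0 genes were called without spleen pair 1 (674 at an unadjusted p under 0.05) and 0 without the lymph node pair (932). The 124 included Cma1, Itgam, S1pr5, Gpm6b, Maged1, B3galnt1, Lifr, Chl1, Prss2 and Sstr4, with adjusted p from 0.042 to 0.048. The statements on genes below are therefore descriptions of the same direction in 3 pairs, with each pair's size, and no gene is said to have changed. A difference of at least 2-fold in all 3 pairs was found for 59 genes in the higher direction (0.54%) and 14 in the lower (0.128%). The 3 IKDC arrays lay wholly above the 3 NK arrays for 530 genes (4.86%) and wholly below for 553 (5.07%). The median difference of the genes of one sign was 0.48 for the higher and -0.39 for the lower, so most of them are small. At the edge of the rule, Casp6 (-0.00, -0.15 and -0.45) and Supv3l1 (0.00, 0.84 and 0.02) were just inside, and Cct6a (0.72, 0.96 and 0) and Cep68 (0.22, 0.39 and 0) just outside. Directions of such small size depend on the scaling: 1230 of the 1720 and 1427 of the 1859 kept one sign in all 3 pairs both without quantile normalisation and with a shift to the 75th percentile, whereas all 59 and all 14 genes of the 2-fold sets did. Higher genes made up 48.1% of the genes of one sign with quantile normalisation, 48% without it and 38.3% with the 75th-percentile shift, which moved the median difference of all genes from -0.00 to -0.05.

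Of the 14 genes at least 2-fold below NK in all pairs, 3 belong to the terminal maturation list: Cma1, Itgam and Klrg1. Cma1, a mast cell chymase gene that mature NK cells also carry, measured 7.46, 8.07 and 6.93 on IKDC and 9.30, 10.86 and 9.37 on NK. The groups did not overlap, and the mean difference was -2.36 (SE 0.24, limma adjusted p = 0.11). Itgam, which encodes the integrin CD11b, measured 5.51, 7.61 and 5.16 on IKDC and 7.69, 9.19 and 7.49 on NK. IKDC spleen array 2 was as high as the lower NK arrays, so the groups overlapped, yet each IKDC array was below its own partner by 1.58 or more. Klrg1, an inhibitory receptor of late NK cells, measured 11.10, 11.21 and 8.90 on IKDC and 12.19, 12.32 and 10.92 on NK. Both lymph node arrays were lower than the spleen arrays of their own cell type, and the pair differences were -1.09, -1.12 and -2.01. Prdm1, which encodes Blimp-1, measured 6.90, 9.04 and 6.79 on IKDC and 8.19, 9.90 and 8.23 on NK. S1pr5, the receptor that lets mature NK cells leave lymph node and marrow, differed by -1.50, -0.55 and -1.33. Zeb2, a factor that acts with T-bet in the last maturation step, differed by -0.92, -1.63 and -0.31, but of its 4 other probe sets only 1 was lower in all 3 pairs.

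Of the 15 tested genes of the terminal maturation list, 13 were lower in all 3 pairs and 0 were higher, against 17% and 15.8% of all genes. Not all 13 were clearly apart in each pair. S1pr1 (-0.10, -0.0007 and -0.86) and Klf2 (-1.32, -0.04 and -0.82), named after their values were seen, were nearly level in spleen 2. In RNA of sorted populations, fewer cells that carry a gene and less of its RNA per cell cannot be told apart. None of the 15 was called by limma. By limma, 11 were lower with an unadjusted p under 0.05, where 4.25% of all genes were. These p-values rest on the same pair differences as the counts of one sign. The list median was -0.81 in spleen pair 1, -0.87 in spleen pair 2 and -0.86 in the lymph node pair, where all genes had medians of -0.03, -0.01 and 0.01. No other list had pair medians so far from 0 that lay as close together. The 2 members of mixed sign were Tbx21 and Irf8. Tbx21, which encodes T-bet, measured 11.08, 11.82 and 10.64 on IKDC and 11.38, 11.65 and 11.53 on NK, so its spleen 2 pair ran the other way. Without quantile normalisation, and with the 75th-percentile shift, Tbx21 was lower in all 3 pairs. Irf8, a factor of both NK and dendritic cells, was lower in spleen (-0.56 and -0.49) and higher in lymph node (1.38). The counterpart list of early and immature stages was not a mirror image, since 2 of 16 tested members were higher in all pairs (Kit and Cxcr3) and 3 were lower (Cd69, Gata3 and Itga1, the last named after its values were seen). Cxcr3 and Itga1 kept no one sign under the other scalings, and Cxcr3 differed by only 0.03 in lymph node. Kit, the stem cell factor receptor, measured 9.54, 9.51 and 9.91 on IKDC and 8.91, 7.90 and 8.71 on NK, with no overlap. CDC had Kit levels of 9.77 to 11.17. Cd27, the receptor lost on the most mature NK cells, had differences of -0.43, 1.04 and 0.24, and Il7r, of the interleukin-7 receptor, 1.98, -0.11 and -0.42. Neither had one sign.

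**Figure D1:**
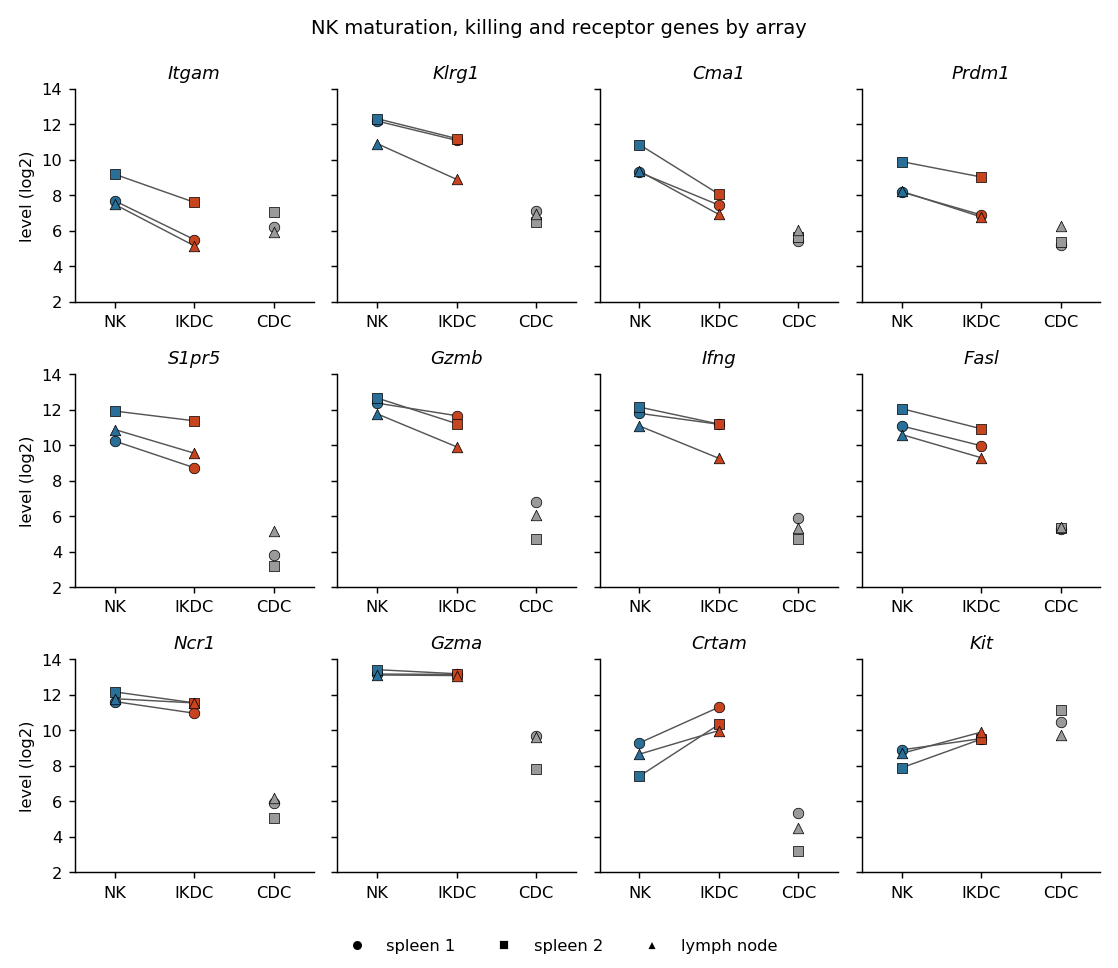
Level (log2 normalised intensity, vertical axis) of 12 genes on each NK, IKDC and CDC array, one point per array, with lines joining matched NK and IKDC arrays. Lines fall from NK to IKDC in all 3 pairs for Itgam, Klrg1, Cma1, Prdm1, S1pr5, Gzmb, Ifng, Fasl, Ncr1 and Gzma, and they climb for Crtam and Kit; the fall is smallest for Gzma, with a mean difference of -0.09.

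The killing machinery was present on all 6 arrays, with most of its genes somewhat lower in IKDC. Of 21 tested effector genes, 11 were lower in all pairs and 2 were higher, with list medians of -0.44, -0.33 and -0.14. Gzmb, which encodes granzyme B, measured 11.66, 11.22 and 9.91 on IKDC and 12.37, 12.66 and 11.76 on NK. Its groups did not overlap and the mean difference was -1.34 (SE 0.23, limma adjusted p = 0.25). Fasl, the death ligand, was lower by close to the same amount in each pair (-1.12, -1.14 and -1.30). Prf1, which encodes perforin, differed by -0.52, -0.59 and -0.83. Gzma differed by -0.02, -0.23 and -0.03, at levels above 13 on all 6 arrays. Ifng, the interferon of the cells' name, was lower in IKDC in all pairs: it measured 11.18, 11.19 and 9.26 on IKDC and 11.80, 12.15 and 11.08 on NK. The chemokine gene Ccl4 likewise differed by -0.46, -0.85 and -1.09. Serpinb9b, of a family of granzyme B inhibitors, differed by -1.82, -1.27 and -1.07. The 2 effector genes that were higher, named after their values were seen, were Gzmm (granzyme M; 8.06, 7.93 and 7.89 against 7.77, 6.75 and 6.77) and Lamp1 (a lysosomal membrane protein; 11.33, 11.86 and 11.36 against 10.85, 10.99 and 10.75). Neither overlapped between the groups. Tnfsf10, which encodes the death ligand TRAIL, had mixed signs (0.46, 1.25 and -0.15).

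Of 16 activating receptors and adaptors tested, 8 were lower in all pairs, 1 was higher and 7 had mixed signs, with list medians of -0.52, -0.36 and -0.16. Fcgr3, the Fc receptor CD16, measured 7.11, 8.48 and 7.52 on IKDC and 9.11, 8.99 and 8.78 on NK without overlap. Fcer1g, the signalling chain that CD16 uses, differed by -0.71, -1.42 and -0.50, also without overlap. Klrk1, which encodes NKG2D, differed by -0.89, -0.65 and -0.40. Tyrobp, which encodes the adaptor DAP12, had mixed signs (-0.25, 0.33 and 0.24), and it was lower in all pairs under both other scalings. Cd160, a receptor for the ligand HVEM, also had mixed signs (1.48, 0.66 and -0.09), as did the signalling lymphocyte receptors Slamf6 (-0.39, 0.82 and 1.38) and Slamf7 (0.15, -0.47 and 0.41), and these 3 are named after their values were seen. The 1 higher gene was Crtam, a nectin-like adhesion receptor of activated killer cells, which measured 11.31, 10.34 and 9.996 on IKDC and 9.30, 7.43 and 8.67 on NK. All IKDC arrays were above all NK arrays and CDC stood far below both, at 3.18 to 5.34. Its mean difference was 2.09 (SE 0.31, limma adjusted p = 0.25). Cadm1, a cell surface partner that CRTAM binds, was also higher in IKDC (1.07, 0.85 and 3.47), and CDC had more of it still (9.62 to 10.53). Of 8 inhibitory receptors tested, 3 were lower in all pairs and 0 higher: Klrg1, Klrb1b (-0.49, -0.79 and -1.37) and Klrd1, the CD94 chain (-0.38, -0.41 and -0.02). Under each of the other scalings 5 of the 8 were lower.

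In the list of 23 receptors and signalling genes of the cytokines that drive NK cells, 5 were lower in all pairs, a share near the 17% of all genes, and 1, Il21r (named after its values were seen), was higher. The medians were -0.39, 0.25 and -0.18, and the spleen 2 median changed sign with the scaling, to -0.02 without quantile normalisation and -0.06 with the 75th-percentile shift. Il21r lost its one sign with the 75th-percentile shift. Both chains of the interleukin-18 receptor were lower, with differences for Il18r1 of -1.49, -0.44 and -0.34 and for Il18rap of -1.17, -0.29 and -0.51. Il12rb2, of the interleukin-12 receptor, differed by -0.44, -1.10 and -0.52. Il2rb, the chain shared by the interleukin-2 and interleukin-15 receptors, was close to 0 in spleen 1 (-0.03) and lymph node (-0.20) and higher in spleen 2 (1.26). Among 23 transcription factors, 7 were lower in all pairs and 0 higher, while 10 were lower and 1 higher without quantile normalisation and 11 and 0 with the shift. Gata3 was one of them (-0.47, -0.49 and -1.55), and Irf2, a factor of interferon signalling that NK maturation needs, was another (-0.44, -0.92 and -0.65, without overlap). Id2, which blocks B cell fate in NK cells, had mixed signs (0.02, -1.16 and -0.76) but was lower in all pairs under both other scalings.

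Adhesion molecules also lay lower in IKDC: 14 of 23 were lower in all pairs and 1, Cadm1, was higher, with medians of -0.56, -0.13 and -0.43. Besides Itgam these included Cd9, a tetraspanin (-1.16, -0.95 and -1.22), Cd48, the ligand of 2B4 (-0.60, -1.17 and -0.43, without overlap), and Itga2, the DX5 antigen CD49b commonly used to sort NK cells of BALB/c mice. Itga2 measured 6.35, 6.62 and 6.41 on IKDC and 7.43, 7.18 and 6.95 on NK, again without overlap. Sphingosine receptor S1pr4 differed by -1.12, -0.50 and -0.77. Bbc3, which encodes the death-promoting PUMA, was lower in IKDC without overlap (7.16, 7.25 and 7.58 against 8.30, 8.75 and 8.31). In the survival list, 4 of 14 genes were lower and 0 higher in all pairs.

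The remaining genes at least 2-fold lower in each pair were few and of varied function. Gpx8, a peroxidase of the endoplasmic reticulum, had the largest mean difference of the 14 (-2.57), with 6.16, 5.80 and 4.08 on IKDC and 7.75, 9.09 and 6.93 on NK. Gp1bb, a platelet adhesion subunit, measured 6.01, 6.31 and 5.30 against 7.39, 8.64 and 7.06. Of 7 platelet and red cell genes tested, 4 were lower in all pairs and 0 higher, and 2 and 3 were lower without quantile normalisation and with the 75th-percentile shift. The summed deposited intensity of the whole list of 15 genes, which is not normalised between arrays here or below, was 3491, 2353 and 1802 on IKDC and 3111, 4222 and 2454 on NK. Car2, a carbonic anhydrase gene, made up most of it on all IKDC and NK arrays but NK spleen 2. It was set apart after the values were seen. The other 14 genes summed to 535, 495 and 469 on IKDC and 587, 2446 and 689 on NK, and their part in these differences was not tested. The others were Clasrp, Cym, Gprin3, Igsf5 and Ntng2, and, ranked outside the 12 genes named by size, Cmklr1 (the chemerin receptor; -1.01, -1.41 and -1.57) and Fgl2 (a secreted fibrinogen-like protein; -1.05, -1.02 and -2.16).

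Class II genes formed a group on the higher side. Of 18 tested genes of class II presentation, 11 were higher in all pairs and 1 was lower (Rfxap, named after its values were seen), against 15.8% and 17% of all genes. The list medians were 0.34, 0.91 and 1.65. H2-Aa, the alpha chain of the I-A molecule, measured 12.01, 10.91 and 11.90 on IKDC, 10.89, 6.62 and 9.60 on NK and 12.57, 12.84 and 11.99 on CDC. H2-Eb1, the beta chain of I-E, measured 11.26, 10.21 and 11.89 on IKDC and 9.98, 7.25 and 8.49 on NK. Both genes had no overlap, and in both the NK spleen 1 array was the highest of the NK arrays, so the spleen 1 difference was the smallest (1.12 and 1.28). H2-DMb2, of the DM molecule that loads peptide, differed by 1.49, 3.50 and 1.23, and H2-Ob, of the DO molecule that tempers DM, by 0.82, 2.12 and 1.00. Cd74, the invariant chain, differed by 0.81, 1.61 and 2.99. H2-Ab1, the beta chain of I-A, was nearly level in spleen 1 and 2.56 higher in lymph node (0.31, 0.78 and 2.56). Ciita, the master activator of class II, was low on all 6 arrays (4.62 to 5.82) and differed by 0.03, 1.20 and 0.48, against 8.60 to 9.86 on CDC. Class II genes are related to each other and vary between mouse strains, so a probe set may also read a related transcript.

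Class II promoters share short control elements, among them the Y box, an inverted CCAAT sequence bound by NF-Y, and 4 promoters are shown as examples that hold this element among genes higher in all 3 pairs. They run from 250 bases before to 50 bases after the gene start and come from RefSeq on GRCm38.p6, a C57BL/6J genome, so BALB/c alleles may differ. Capitals mark GATTGG or its reverse complement.
H2-Aa, chr17:34287774-34288073, minus strand: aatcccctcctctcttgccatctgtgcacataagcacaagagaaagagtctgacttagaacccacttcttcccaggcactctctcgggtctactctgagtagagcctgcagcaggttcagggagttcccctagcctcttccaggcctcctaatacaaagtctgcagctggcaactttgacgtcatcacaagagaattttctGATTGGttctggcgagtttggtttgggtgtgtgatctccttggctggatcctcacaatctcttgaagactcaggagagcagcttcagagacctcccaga
H2-Eb1, chr17:34305617-34305916, plus strand: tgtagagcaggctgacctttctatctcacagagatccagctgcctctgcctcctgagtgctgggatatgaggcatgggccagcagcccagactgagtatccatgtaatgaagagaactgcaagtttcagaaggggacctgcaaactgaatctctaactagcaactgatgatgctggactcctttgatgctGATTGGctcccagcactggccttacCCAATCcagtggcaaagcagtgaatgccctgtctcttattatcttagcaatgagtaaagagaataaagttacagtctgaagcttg
H2-Ob, chr17:34238655-34238954, plus strand: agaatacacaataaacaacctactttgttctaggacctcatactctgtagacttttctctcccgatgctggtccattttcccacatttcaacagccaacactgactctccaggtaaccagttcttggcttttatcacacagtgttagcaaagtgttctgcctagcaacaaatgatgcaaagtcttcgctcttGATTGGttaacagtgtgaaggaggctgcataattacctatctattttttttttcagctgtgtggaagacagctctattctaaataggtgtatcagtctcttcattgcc
H2-DMb2, chr17:34144999-34145298, plus strand: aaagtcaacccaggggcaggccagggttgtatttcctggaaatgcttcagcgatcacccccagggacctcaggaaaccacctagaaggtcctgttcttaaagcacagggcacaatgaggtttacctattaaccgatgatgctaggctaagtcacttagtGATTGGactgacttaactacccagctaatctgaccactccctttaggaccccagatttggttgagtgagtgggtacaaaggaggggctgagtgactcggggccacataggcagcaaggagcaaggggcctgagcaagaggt
GATTGG stood 49 bases before the start of H2-Aa, 60 before that of H2-Eb1, 58 before that of H2-Ob and 91 before that of H2-DMb2, and H2-Eb1 held another match on the opposite strand at 35 bases. Of the 18 class II genes tested, 12 had a promoter in the table and 7 of these had at least 1 match on either strand. The promoters of Ctss, Lgmn and Ifi30, which were also higher in all pairs, had 0 matches, and that of H2-Oa, higher as well, had 1. The same letters were found in 16.1% of all 32851 promoters of that length. A match describes the sequence only.

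Of 27 tested genes of conventional dendritic cell identity, 13 were higher in all pairs, 3 were lower and 11 had mixed signs, with medians of 0.55, 0.80 and 0.65. The 3 lower genes were Xcr1 (-0.53, -0.35 and -0.31), Itgae (-0.35, -0.23 and -1.78) and Clnk (-0.47, -0.97 and -0.31). Itgae and Clnk are named after their values were seen. The IKDC level was at least 2-fold below that of CDC of the same organ and number for 23, 23 and 21 of the 27. In lymph node, Clec10a, a lectin receptor, measured 8.88 on IKDC and 8.47 on CDC, and Cd209a, a relative of DC-SIGN, 8.53 and 9.33. Irf4, a factor of dendritic and B cells, measured 6.85, 7.33 and 6.37 on IKDC and 5.51, 3.79 and 3.62 on NK. The groups did not overlap, and CDC stood at 8.78, 9.56 and 6.89. Sirpa, a surface receptor of one dendritic cell branch, was higher by 1.43, 1.06 and 1.04, with CDC at 9.82 to 11.00. Flt3, the receptor for the growth factor of dendritic cells, was 0.52 and 0.53 higher in spleen and 2.92 higher in lymph node. Havcr2, which encodes TIM-3, was higher by 0.87, 0.89 and 1.41, but its IKDC levels (4.98 to 5.44) were about the filter level of 5.31. Zbtb46, which marks the conventional lineage, had mixed signs (0.56, 0.96 and -0.18) but was higher in all pairs without quantile normalisation, and Xcr1, the receptor of cross-presenting dendritic cells, was low on all 6 arrays (4.23 to 5.03) against 7.91 to 9.59 on CDC. Costimulatory genes had no common direction, with 4 of 14 higher and 2 lower in all pairs, and 2 higher and 3 lower under each of the other scalings. Cd80 (-0.69, 0.18 and -1.26), Cd86 (-0.28, 0.43 and -0.37) and Cd40 (-0.22, 0.94 and 0.82) had mixed signs, with Cd80 lower in all pairs under both other scalings, and all 3 reached at most 6.70 on the 6 arrays and at least 8.00 on CDC. Cd83, a marker of activated dendritic cells, was higher by 1.93, 1.10 and 0.34. Summed over the whole list, the deposited intensity of dendritic cell genes was 10523, 6726 and 10166 on IKDC, 9563, 7032 and 9841 on NK and 52128 to 57863 on CDC. Id2 and Itgax made up most of the NK sums and were set apart after the values were seen. They summed to 6261, 3955 and 4390 on IKDC and 7012, 5023 and 5118 on NK, so their joint sum was lower on IKDC in each pair. This does not hold for each gene. On the normalised scale Itgax differed by -0.29, 3.97 and 2.70, and Id2 by 0.02, -1.16 and -0.76. The other 25 genes summed to 4262, 2770 and 5776 on IKDC, 2551, 2009 and 4723 on NK and 43609 to 49772 on CDC, so without these 2 genes the IKDC sum was the higher in each pair.

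**Figure D2:**
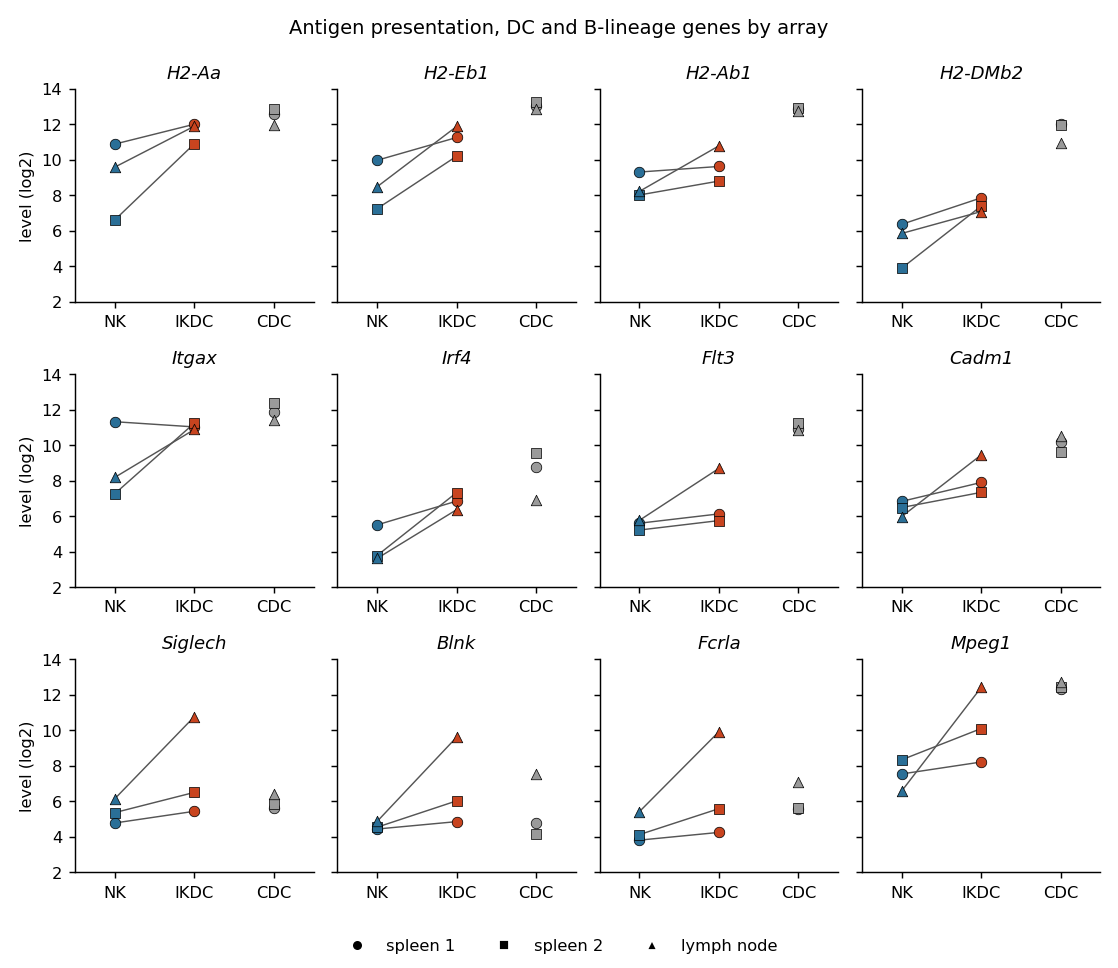
Level (log2 normalised intensity, vertical axis) of 12 genes of antigen presentation, dendritic cells and B-lineage cells on each NK, IKDC and CDC array, one point per array, with lines joining matched NK and IKDC arrays. H2-Aa and H2-Eb1 climb in all 3 pairs, Itgax is level in the spleen 1 pair, and Siglech, Blnk, Fcrla and Mpeg1 climb most in the lymph node pair, where IKDC reaches 10.78, 9.62, 9.93 and 12.43.

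The lymph node pair held larger differences than the spleen pairs for one group of genes. Of 17 tested genes of plasmacytoid dendritic cells, 9 were higher in all pairs and 0 lower, and the list medians were 0.08 and 0.35 in spleen but 3.49 in lymph node. Siglech, a receptor used to define these cells, measured 5.45, 6.51 and 10.78 on IKDC and 4.79, 5.37 and 6.16 on NK. Tlr7, the endosomal sensor of single-stranded RNA, measured 4.93, 5.42 and 7.85 against 4.06, 4.23 and 4.68, and Upb1 4.22, 6.37 and 9.30 against 3.18, 3.57 and 3.86. Pacsin1, an adaptor of membrane traffic, differed by 1.83, 1.48 and 3.49. The summed intensity of the list was 25084 on the lymph node IKDC array and 6239 on its NK partner, against 9605 and 8676 on spleen IKDC and 10550 and 12814 on spleen NK. In spleen most of it came from Irf8 and from Atp1b1, a sodium pump subunit gene at 11.42 to 12.50 on all 6 arrays. These 2 genes were set apart after the values were seen. They summed to 6962, 6618 and 7360 on IKDC and 8623, 10844 and 4556 on NK. The other 19 genes summed to 2643, 2058 and 17724 on IKDC and 1926, 1970 and 1683 on NK. The B-lineage genes Blnk and Fcrla had the same order, with Blnk at 0.42, 1.48 and 4.75 and Fcrla at 0.44, 1.46 and 4.50. Cd22 ran differently, with the largest difference in spleen 1 (2.23, 0.73 and 0.93), and Cd72 was modest throughout (0.27, 1.31 and 0.69). Of 12 B cell genes tested, 7 were higher in all pairs, 0 lower and 5 mixed, with medians of 0.18, 0.56 and 0.97. Those of mixed sign, named after their values were seen, were Blk, Spib, Vpreb3, Cd79b (-0.45, 0.35 and 1.27) and Ms4a1 (-0.61, -0.19 and 0.53). The summed intensity of the B cell list was 3659, 2989 and 7233 on IKDC and 2223, 1888 and 2411 on NK. Ebf1 and Fcer2a were below the filter level on all 6 arrays. Of 18 macrophage and monocyte genes tested, 6 were higher in all pairs, 0 lower and 12 mixed. Mixed members, named after their values were seen, included Adgre1 (0.01, 0.30 and -1.55), Fcgr1 (-0.88, -0.97 and 0.29) and Cd68 (-0.04, 0.26 and 3.93). Mpeg1, the pore protein of phagocytes, differed by 0.67, 1.76 and 5.83, whereas C1qa (2.86, 1.52 and 2.59) and C1qb (2.44, 0.95 and 1.60), of the complement initiator, had no such order. Slc40a1, the iron exporter of macrophages, was largest in spleen 2 (2.34, 3.65 and 0.88). The summed intensity of macrophage genes was 4789, 11805 and 13734 on IKDC and 2731, 8756 and 5757 on NK, with Spic below the filter level on all 6 arrays. The part of such cells in the other differences was not tested.

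Differences in spleen tended to return in the lymph node pair, which shares no array with them, although the filter used the mean over all arrays, lymph node included. Of 127 genes at least 2-fold higher in both spleen pairs (1.16% of the tested genes), 101 (79.5%) were higher in the lymph node pair and 59 (46.5%) were at least 2-fold higher, where 50.8% and 6.99% of all genes were. Of 40 genes at least 2-fold lower in both spleen pairs (0.366%), 34 (85%) were lower in lymph node and 14 (35%) at least 2-fold, where 49.1% and 2.51% of all genes were. Of the 59 higher genes, 38 had an NK mean below the filter level of 5.31, where 561 of all 10916 genes did. Such genes entered through IKDC or CDC, and the shares of all genes are not matched for this. The part of the filter in the return of higher genes was not tested. Of the 14 lower genes, 0 had an NK mean and 1 an IKDC mean below that level. Across all genes, however, the pair differences correlated weakly: r was 0.43 between spleen 1 and lymph node, 0.17 between the spleen pairs and 0.15 between spleen 2 and lymph node. Genes are not independent replicates. A limma test of organ by cell type called 0 of 10916 genes (0%), with 411 (3.77%) at an unadjusted p under 0.05 and a smallest adjusted p of 0.29. With 1 lymph node pair and 1 residual degree of freedom among the arrays this test has little reach. It called 49 genes without quantile normalisation and 28 with the 75th-percentile shift.

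**Figure D3:**
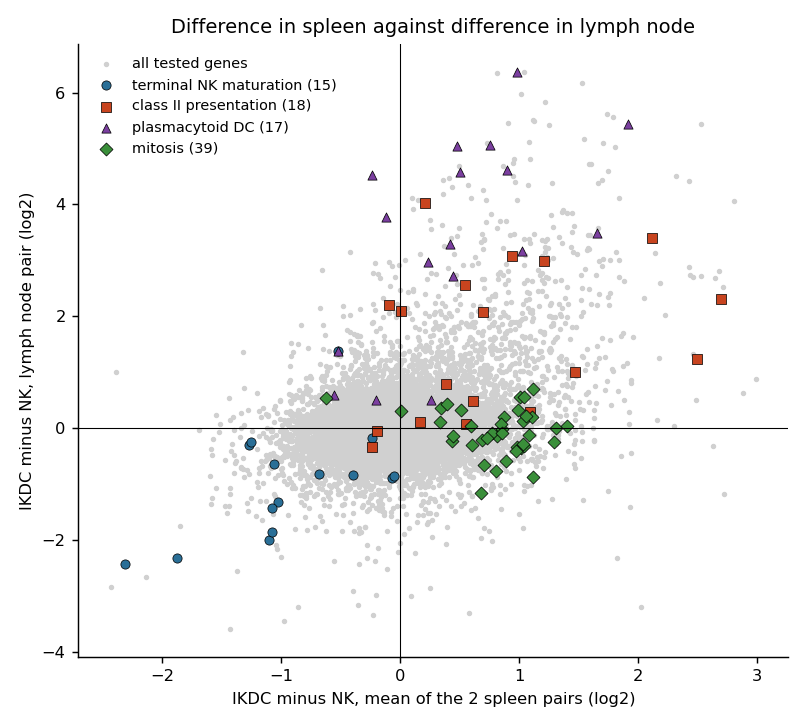
Difference IKDC minus NK (log2) in the lymph node pair (vertical axis) against the mean difference of the 2 spleen pairs (horizontal axis), one point per gene, for all 10916 tested genes in grey and the members of 4 lists in colour. Genes of terminal NK maturation lie at the lower left, except Irf8, plasmacytoid genes reach up to high lymph node values, and mitosis genes spread right at lymph node values around a median of -0.09, which is 0.08 without quantile normalisation.

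Most genes of cell division were higher in spleen IKDC, and fewer were in lymph node IKDC. Of 39 mitosis genes, 37 were higher in spleen pair 1, 35 in spleen pair 2 and 17 in the lymph node pair, with medians of 0.99, 0.67 and -0.09. The lymph node median of the mitosis genes changed sign with the scaling, to 0.08 without quantile normalisation and 0.05 with the 75th-percentile shift. Of 30 DNA replication genes, 30, 22 and 10 were higher, with medians of 0.80, 0.46 and -0.22. In all 3 pairs together, 14 of 39 and 10 of 30 were higher and 0 of either lower, with 1 replication gene lower under the 75th-percentile shift. Tk1, the thymidine kinase of S phase, measured 9.11, 6.96 and 5.96 on IKDC and 7.47, 5.31 and 5.21 on NK. Both spleen 1 arrays were the highest of their cell type, so the groups overlapped while each pair kept its order. Mcm2, of the replicative helicase, differed by 1.05, 0.58 and 0.68, Ect2, which drives cytokinesis, by 1.08, 1.01 and 0.55, and the spindle checkpoint kinase gene Ttk by 0.90, 1.33 and 0.70. Mki67, the common proliferation marker, measured 11.91, 9.07 and 8.63 on IKDC and 11.06, 8.71 and 8.94 on NK, and its lymph node difference was -0.31. The limma test between organs called none of these genes.

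**Figure D4:**
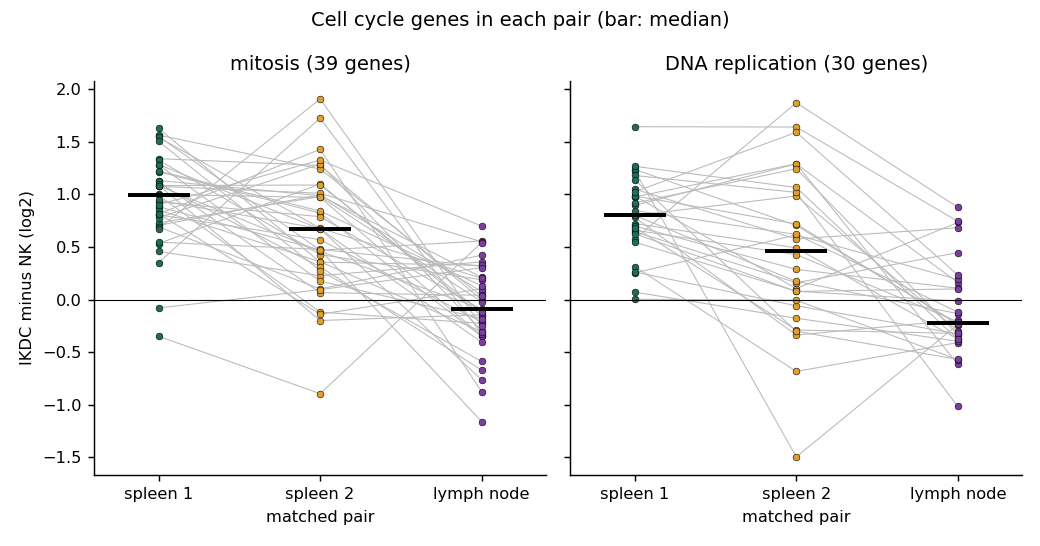
Difference IKDC minus NK (log2, vertical axis) of each tested gene for mitosis (39 genes, left) and DNA replication (30 genes, right) in the 3 matched pairs, with grey lines joining a gene's values and black bars at the medians. The medians are 0.99, 0.67 and -0.09 for mitosis, the last turning to 0.08 without quantile normalisation, and 0.80, 0.46 and -0.22 for replication.

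Of 9 heat shock and chaperone genes, 7 were higher in all pairs and 0 lower, led by Hspa1a (7.22, 9.06 and 7.53 on IKDC against 6.50, 5.43 and 6.28 on NK) and Hspa1b (0.94, 2.64 and 1.06). Of 23 immediate early genes, 14 were lower in all pairs and 0 higher, among them Junb (-0.91, -0.77 and -0.71) and Atf3 (-0.75, -1.14 and -0.50). This division of the list was made after its values were seen. The heat shock count depends on the scaling, with 5 of 9 higher and 1 lower in all pairs without quantile normalisation and 4 higher and 2 lower with the 75th-percentile shift, while the immediate early genes had 16 lower under either. Of 25 interferon response genes, 7 were higher and 2 lower in all pairs, with medians of -0.03, 0.06 and 0.13. Usp18, which removes the tag ISG15, differed by 0.44, 0.75 and 1.11, and Xaf1, a death-promoting interferon target, by -0.49, -0.91 and -1.19. T cell genes had no common direction over the 3 pairs, with 0 of 10 higher and 2 lower in all pairs. In spleen 6 and 6 of the 10 were higher, and in lymph node 2, with medians of 0.27, 0.49 and -0.93. Their summed intensity was 2379, 3298 and 3239 on IKDC and 2274, 2297 and 6081 on NK. A basophil and mast cell gene, Ms4a2 (the beta chain of the IgE receptor), was lower on IKDC, with 5.06, 5.79 and 3.88 against 5.44, 8.27 and 7.48. Of the 4 tested genes of its list, 2 were lower in all pairs and 2 mixed, with medians of 0.28, -2.37 and -1.95. The mixed genes, named after their values were seen, were Cpa3 (0.95, -3.69 and -2.56) and Gata2 (0.59, -2.27 and -1.33). The summed intensity of that list was 501, 333 and 293 on IKDC and 302, 2586 and 1005 on NK, so the NK arrays of spleen 2 and lymph node held most of it.

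**Figure D5:**
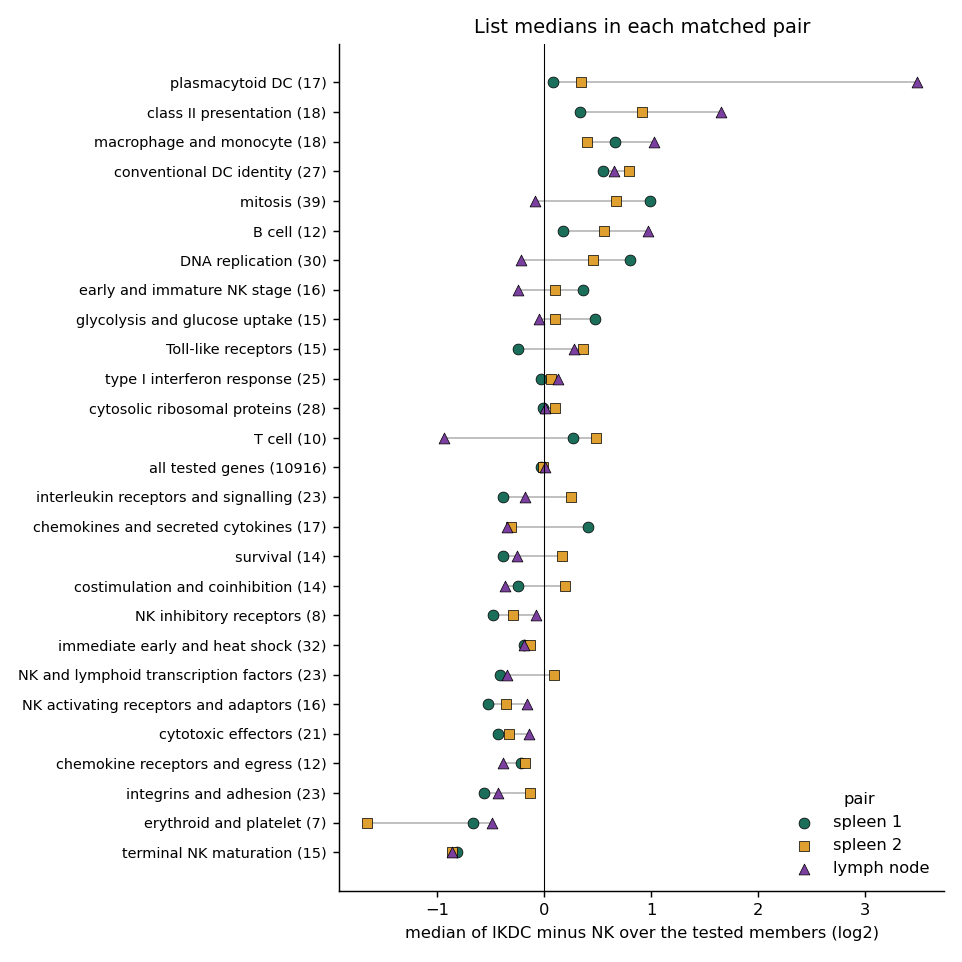
Median of IKDC minus NK (log2, horizontal axis) over the tested members of each gene list with 7 or more tested members, one symbol per matched pair and the number of members in brackets. Terminal NK maturation has its 3 symbols between -0.87 and -0.81, class II and conventional dendritic cell lists lie to the right of 0 in every pair, and the plasmacytoid list reaches 3.49 in the lymph node pair.

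The genes furthest above NK in all pairs included many known from other tissues. By the size of the smallest pair difference, Gpm6b, which encodes a membrane glycoprotein of neural cells, came first. It measured 10.31, 5.55 and 9.68 on IKDC and 7.39, 2.86 and 5.62 on NK, so the groups overlapped, but each IKDC array was at least 2.70 above its partner. Maged1, an adaptor of the MAGE family, measured 7.86, 5.54 and 7.44 against 5.05, 2.93 and 4.91, and CDC stood at 3.35 to 6.15. Chl1, a neural adhesion molecule, measured 8.75, 7.56 and 8.13 against 6.71, 4.68 and 5.43 without overlap, and CDC stood at 3.59 to 5.43. Its mean difference of 2.54 (SE 0.27) had a limma adjusted p of 0.11. Lifr, the receptor of leukaemia inhibitory factor, measured 6.60, 6.08 and 10.17 against 4.35, 3.03 and 7.49, and both lymph node arrays were the highest of their type. B3galnt1, a glycosyltransferase gene, differed by 2.56, 2.30 and 2.87. Prss2, a trypsinogen gene, measured 9.72, 7.67 and 9.23 against 7.82, 5.65 and 7.60, and its 3 other probe sets were higher in all pairs as well, with CDC at 4.36 to 5.66. Sstr4, a somatostatin receptor gene, differed by 1.91, 1.59 and 2.35. Rtn1 (2.46, 2.19 and 4.51), Ppfia4 (2.16, 2.91 and 5.44), Plxnb2 (1.74, 3.62 and 2.81), Ddr1 (1.64, 3.23 and 4.41) and Cacna1e (1.92, 1.55 and 5.62) completed the 12, and for all 5 the CDC mean was above the NK mean.

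Of the 59 genes at least 2-fold higher in each pair, the CDC mean was above the NK mean for 48 and above the IKDC mean for 28. Of all 10916 genes, the CDC mean was above the NK mean for 5126 and above the IKDC mean for 5105. The count of 28 is thus near the share of all genes. In 19 of the 59 the lymph node difference exceeded both spleen differences by 1 or more. IKDC spleen 1 was the highest of the 3 IKDC arrays for 33 of the 59 and for 3478 of all 10916 genes. Spleen 1 was above spleen 2 in all 3 cell types for 26 of the 59 and for 2534 of all genes. The part of the spleen 1 arrays in these differences was not tested. For 35 of the 59 the groups did not overlap, where all IKDC arrays lay above all NK arrays for 530 of all genes (4.86%). The 59 were chosen for being apart in each pair, which favours this. In 38 the NK mean was below the filter level of 5.31, so these genes entered the test through IKDC or CDC. The CDC counts are therefore partly set by the filter, and the size of these differences depends on how weak signals are read. Where a gene had other probe sets, these were not used to choose it. They read the same RNA on the same arrays, so they check the probe set and not the difference between the cell types. Of the other probe sets of all higher genes, 29.6% were higher in all pairs, against 13.6% of all probe sets above the filter level, and of those of all lower genes 41% were lower, against 18.7%. Other probe sets of the 59 were higher in all pairs in 24 of 40 cases (60%), and the 3 other probe sets of the 14 lower genes were lower in 3 cases (100%). Among genes named above, every other probe set had the same direction in all pairs for H2-Aa (3 of 3), H2-Ab1 (2 of 2), Cadm1 (2 of 2), C1qb (2 of 2) and Hspa1b (2 of 2). For Ppfia4 (0 of 2), Irf4 (0 of 1), Kit (0 of 1), Sirpa (0 of 1) and Tlr7 (0 of 1) it was none, and for Ddr1 it was 2 of 4.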

How the data were processed

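Each array measured RNA of 1 sorted cell population, with TRIzol and RNeasy extraction and biotin-labelled cRNA, per the labels' protocols. The deposited values are 1 intensity per probe set on a linear scale, and the sources used here do not name the software with which the authors summarised probes and scaled arrays. An array has no read depth, so the number of arrays limits the precision. Of 45101 probe sets, 64 were controls, 34945 had 1 gene symbol, 932 several and 9160 none.

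The 20th percentile of all values (6.49 intensity units) was added, log2 was taken and the 9 arrays were quantile normalised together. Each of 18193 genes was read from its single-symbol probe set with the highest mean, and the 40% of genes with the lowest mean over the 9 arrays (below 5.31) were left out, which kept 10916. A fold on this scale understates the difference of low genes. limma 3.58.1 in R 4.3.3 (lmFit and eBayes with trend, two-sided) tested IKDC minus NK with the pair as a block, leaving 2 residual degrees of freedom, and was tested on simulated data first. Benjamini-Hochberg adjustment ran over all genes, with a threshold of 0.05.

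The spleen arrays carry the numbers 1 and 2 in each cell type, and no label says that a number marks the same mice. The deviations of same-numbered IKDC and NK spleen arrays from their group means correlated at 0.49 across genes, over 2 pairs, and Xist levels matched within a number. In lymph node the pairing is by organ only.

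Genes were named if they were among the 12 in each direction with the largest smallest pair difference (RIKEN, clone and predicted names passed over), up to 4 of each of 28 gene lists by the same measure, or 1 of 35 tested genes of a list of known markers. The genes, lists and rules were chosen with earlier results of these data known. Gene lists were described by counts and medians, with no test. Alternatives changed the block, arrays in the fit, scaling, offset, filter, probe set and spread, and left out each pair.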

Additional observations from a re-analysis of the deposited data

Results flagged for a closer look

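For 5 gene lists the median difference between IKDC and NK in the lymph node pair had the opposite sign to both spleen pairs. The lymph node medians were -0.088 for mitosis, -0.22 for DNA replication, -0.25 for the early and immature NK stage, -0.93 for T cell genes and -0.047 for glycolysis and glucose uptake, where the spleen medians were all above 0. These differences between organs were not tested for the lists, and the lymph node has 1 pair.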

How the results depend on the processing

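Only 3 pairs were measured, the lymph node once, and the fits without the pair as a block, which ignore the labels' numbers, called no more genes. Limma called 0 genes with no replicate block (647 at an unadjusted p under 0.05, smallest adjusted p 0.812), 0 with the block in all 9 arrays and 0 in 6 groups without pairing, so the block changed no call. Leaving out each pair gave 0 to 124 called genes, 2779 to 3084 higher, 2755 to 3316 lower, 127 to 368 at least 2-fold higher, 33 to 52 at least 2-fold lower and 664 to 854 genes in the spleen and lymph node comparison in place of 135. Fewer pairs must hold one sign there, so the counts of genes of one sign or at least 2-fold apart are larger by construction; the cause of the 124 calls was not tested. Counts also moved with the number of genes tested: no filter gave 2609 higher, 3131 lower, 106 and 27 at least 2-fold apart and 267 in the organ comparison. A filter at the 60th percentile gave 1082 higher, 18 and 6 at least 2-fold apart and 56, and each probe set alone gave 2861 higher, 3862 lower, 108 at least 2-fold higher and 250. An offset at the 40th percentile left 31 genes at least 2-fold higher and 76 in the organ comparison. The test between organs called 49 genes without quantile normalisation and 28 with the 75th-percentile shift, and the cause was not tested. It could not be fitted with a pair left out.

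Of 1891 values for 115 named genes, 15 reversed, all of genes with mixed signs. Alternatives that changed only the block, the arrays in the fit or the spread kept each estimate by construction, so nothing could reverse there. A gene of one sign in all pairs also could not reverse when a pair was left out. The low number of reversals is therefore partly fixed in advance. Without quantile normalisation Cd86 was 0.019, Irf8 -0.23 and Tyrobp -0.31, and with the shift Irf8 was -0.29 and Tyrobp -0.36. The mean of all probe sets gave 0.28 for Cd86 and 0.073 for Eomes. Leaving out each pair gave -0.32 to 0.076 for Cd86, -0.10 to 0.64 for Cd27, -0.18 to 0.11 for Eomes, -0.11 to 0.62 for Il2rb, -0.27 to 0.94 for Il7r, -0.52 to 0.44 for Irf8 and -0.0057 to 0.28 for Tyrobp. List medians stayed within the spread of the pair medians in 442 of 475 values and changed sign in 20. The 442 include the alternatives of block, arrays in the fit and spread, where list medians could not move. The median of ribosomal protein genes went from 0.02 to -0.34 without quantile normalisation and to -0.39 with the shift.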
